A study of Mus musculus with 24 samples.

Results

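Alveolar type I cells are thin, flat epithelial cells that spread over most of the gas-exchange surface of the lung. They arise in the distal airways before birth, are replenished from type II cells, and in the mouse the surface they cover is remodelled by the septation of air sacs into alveoli after birth. The 8 genes described here, Ager, Hopx, Pdpn, Aqp5, Cav1, Rtkn2, Emp2 and Akap5, are known in mouse lung for their expression in these cells. They were chosen by symbol, by a rule that uses no measured value but was set with earlier results of these data known, and each was read by exactly 1 probe set among the 21789 probe sets that name 1 gene, which cover 19938 genes. The measurements were made on the left lung lobe of male mice of the strain C57Bl/6N Tac under specific pathogen-free housing, in Scnn1b-Tg mice and their wild-type (WT) littermates at postnatal day (PND) 0, 3, 10 and 42. Scnn1b-Tg mice overexpress the beta subunit of the epithelial sodium channel from the promoter of Scgb1a1, a gene of airway club cells. They are a model of airway mucus obstruction. The level of the transgene in type I cells was not measured. Each of the 8 groups (genotype by age) held 3 Affymetrix arrays, 24 in all, and each array carried pooled RNA. By the methods a pool came from 3 mice, whereas the labels list 2 animals for most arrays and 1 for Scnn1b-Tg replicate 3 at PND 42, so p-values measure the spread between pools and that array may stand for fewer animals.

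Values are log2 expression levels after normalization across arrays, and a difference of 1 is a doubling. Array medians lay between 4.79 and 5.0, and arrays of a group correlated at 0.912 to 0.992 over all rows. The Scnn1b probe set was 3.04, 3.29, 3.22 and 2.93 log2 higher in Scnn1b-Tg than in WT at PND 0, 3, 10 and 42. All 8 type I cell genes were measured well above the array median on all arrays, the lowest value being 7.67 for Rtkn2 in a WT lung at PND 10. Because the tissue was whole lobe, a lower level may mean fewer type I cells, less RNA per cell, or a larger share of other cells, and these cannot be told apart. Cav1 and Emp2 are also expressed in endothelium, and Pdpn in lymphatic endothelium and mesothelium. WT replicate 1 at PND 0 stood apart for several of these genes, though not by the number of deviating rows. On it 272 rows lay 2-fold or more from the other arrays of its group, against 13 to 296 on the other arrays. WT replicate 1 read lower than the other 2 WT arrays at PND 0 for Rtkn2 by 1.55, for Akap5 by 1.27, for Pdpn by 0.60, for Hopx by 0.47 and for Emp2 by 0.47 log2. On the same array Alb, the albumin gene of liver and one picked after its values were seen, read 9.65, against 4.30 and 4.08 on the other WT arrays at PND 0 and at most 7.86 on any other array. Values without this array are given where it moved a call or a value.

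Each of these genes differed between some ages in each genotype, except Aqp5, which passed in no comparison of ages in WT. None of them passed the threshold between genotypes. In the mean over the 8 genes of levels centred on each gene's own average, Scnn1b-Tg lungs scored 0.18 ± 0.115, -0.047 ± 0.059, -0.39 ± 0.078 and 0.33 ± 0.15 in order of age (log2, SD, n = 3). WT lungs scored 0.092 ± 0.34, -0.145 ± 0.105, -0.38 ± 0.044 and 0.37 ± 0.0625 at the same ages. The 8 genes together were thus lowest at PND 10 and highest at PND 42 in each genotype, and the wide spread at PND 0 in WT came from the array described above, which scored -0.30 while the other WT arrays at PND 0 reached 0.34. Taken gene by gene, 6 of the 8 had their lowest group mean at PND 10 in Scnn1b-Tg and 6 of 8 in WT.

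**Figure D1:**
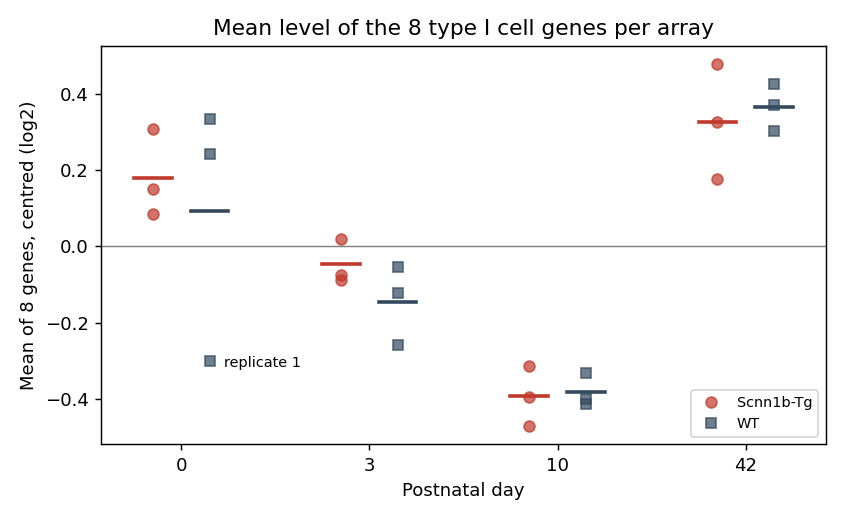
Mean over the 8 type I cell genes of log2 levels centred on each gene's average (y axis) by postnatal day (x axis, ages equally spaced), 1 point per array, Scnn1b-Tg (circles) left of WT (squares), with bars at group means. The PND 10 arrays lie between -0.47 and -0.31 and the PND 42 arrays between 0.18 and 0.48; WT replicate 1 at PND 0 is labelled.

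Between PND 10 and PND 42, 7 of the 8 genes rose in Scnn1b-Tg lungs and 7 of 8 rose in WT lungs at an adjusted p of 0.05 or less. Over all probe sets tested, 10.4% rose in Scnn1b-Tg and 9.74% in WT by the same rule. Aqp5 was the exception in each genotype. The median change of the 8 genes was 0.63 log2 in Scnn1b-Tg and 0.58 log2 in WT, beside medians of -0.019 and -0.027 over all probe sets. With the additional condition of a 2-fold change, only Akap5 of the 8 was called in each genotype, where 1.79% of probe sets in Scnn1b-Tg and 1.7% in WT rose by that rule. For all 7 genes in each genotype the 3 arrays at PND 42 lay above the 3 at PND 10, as they did for 14.9% of all probe sets in Scnn1b-Tg and 16.4% in WT. The successive intervals share arrays (a low value at PND 10 enters the interval before it and the interval after it), whereas the Scnn1b-Tg and WT intervals share none.

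Akap5 encodes an anchoring protein that holds protein kinase A, calcineurin and adenylyl cyclase at the plasma membrane. It had the widest range of the 8 genes, 1.91 log2 between its lowest and highest group mean. In Scnn1b-Tg lungs it read 11.10, 11.41 and 11.04 at PND 0, then 10.08, 10.21 and 10.29 at PND 3, 9.62, 9.81 and 9.98 at PND 10, and 11.19, 11.34 and 11.70 at PND 42. In WT lungs it read 9.97, 11.18 and 11.29 at PND 0, then 10.37, 10.25 and 10.18 at PND 3, 9.61, 9.73 and 9.89 at PND 10, and 11.30, 12.09 and 11.59 at PND 42. The arrays of PND 3 and PND 10, and WT replicate 1 at PND 0, were low and those of PND 42 high, with no overlap between PND 10 and PND 42. Akap5 rose between PND 10 and PND 42 by 1.61 log2 in Scnn1b-Tg (SE 0.24, adjusted p = 3.62e-05), a 3.05-fold change, and by 1.91 log2 in WT (SE 0.24, adjusted p = 4.87e-06), a 3.77-fold change. In the days after birth, PND 0 to PND 3, it fell by 0.99 log2 in Scnn1b-Tg (SE 0.24, adjusted p = 0.00215). In WT that change was -0.55 log2 (SE 0.24, adjusted p = 0.0699), and -0.97 log2 (adjusted p = 0.000258) without WT replicate 1 at PND 0. Compared directly, PND 42 was above PND 0 in WT by 0.84 log2 (adjusted p = 0.00617), a call that ended without WT replicate 1 at PND 0, when the difference was 0.42 log2 (adjusted p = 0.061).

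Emp2 encodes a tetraspan protein of the epithelial membrane protein family that organises adhesion and lipid raft proteins at the cell surface. In Scnn1b-Tg lungs Emp2 read 10.78, 10.86 and 10.53 at PND 0, 10.53, 10.37 and 10.47 at PND 3, 9.89, 10.13 and 10.08 at PND 10, and 10.82, 10.72 and 10.79 at PND 42. In WT lungs it read 10.39, 10.77 and 10.94 at PND 0, 10.41, 10.53 and 10.16 at PND 3, 10.16, 9.93 and 10.14 at PND 10, and 10.93, 11.04 and 10.86 at PND 42. PND 10 was the lowest age in each genotype, and its arrays lay below those of PND 42 and at or below those of PND 3. The rise from PND 10 to PND 42 was 0.75 log2 in Scnn1b-Tg (SE 0.13, adjusted p = 0.000142) and 0.87 log2 in WT (SE 0.13, adjusted p = 2.86e-05). Emp2 also changed from PND 0 to PND 3 by -0.33 log2 in WT (adjusted p = 0.0393), and by -0.49 log2 (adjusted p = 0.00405) without WT replicate 1 at PND 0. The call was lost without WT replicate 2 or 3 at PND 0 (adjusted p = 0.113 and 0.217) or replicate 1 or 3 at PND 3 (adjusted p = 0.0598 and 0.2). Of the 4 other measured genes of the epithelial membrane protein family, none rose and 2 fell from PND 10 to PND 42 in Scnn1b-Tg. In WT none rose and 1 fell. Over all probe sets, 10.4% rose and 19.4% fell in Scnn1b-Tg in that interval, and 9.74% rose and 20.7% fell in WT. With 4 genes, these counts are not far from those shares. Emp1 fell in each genotype, by 1.09 log2 in Scnn1b-Tg and by 0.69 log2 in WT.

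Rtkn2 encodes a protein of the rhotekin family. It was high at birth and had the largest fall of the 8 genes after it. In Scnn1b-Tg lungs it read 9.41, 10.10 and 9.97 at PND 0, against 8.54, 8.34 and 8.23 at PND 3, then 7.89, 8.14 and 7.96 at PND 10 and 8.87, 8.86 and 9.25 at PND 42. In WT lungs it read 8.09, 9.60 and 9.68 at PND 0, then 8.34, 8.17 and 8.39 at PND 3, 7.67, 8.28 and 8.02 at PND 10, and 8.70, 9.07 and 9.09 at PND 42. All PND 0 arrays except WT replicate 1 lay above all later arrays of either genotype. Rtkn2 fell between PND 0 and PND 3 by 1.46 log2 in Scnn1b-Tg (SE 0.28, adjusted p = 0.000218) and by 0.82 log2 in WT (SE 0.28, adjusted p = 0.0209). The WT value moved to -1.34 log2 (adjusted p = 1.35e-05) without WT replicate 1 at PND 0, and to -0.58, -0.54 and -0.76 log2 (adjusted p = 0.128, 0.138 and 0.0584) without WT replicate 2 or 3 at PND 0 or replicate 2 at PND 3. It rose again between PND 10 and PND 42, by 0.99 log2 in Scnn1b-Tg (SE 0.28, adjusted p = 0.00952) and by 0.96 log2 in WT (SE 0.28, adjusted p = 0.0115). Without WT replicate 1 at PND 10 the WT rise was 0.80 log2 and no longer passed (adjusted p = 0.0634). Unlike Akap5 and Emp2, it did not regain its PND 0 level in Scnn1b-Tg: PND 42 remained lower than PND 0 by a log2 change of -0.83 (SE 0.28, adjusted p = 0.0165), a call that ended without replicate 2 or 3 at PND 0 (adjusted p = 0.0742 and 0.0543) or replicate 2 at PND 42 (adjusted p = 0.0506). In WT the same difference was -0.17 log2 (adjusted p = 0.624), and -0.68 log2 (adjusted p = 0.00618) without WT replicate 1 at PND 0.

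Cav1 encodes caveolin-1, the coat protein of the flask-shaped membrane pits called caveolae, which are dense in type I cells and in endothelium. It averaged 10.03 ± 0.26, 9.40 ± 0.17, 9.16 ± 0.19 and 9.71 ± 0.042 log2 in Scnn1b-Tg lungs, in order of age (SD, n = 3), and 10.02 ± 0.15, 9.37 ± 0.053, 9.32 ± 0.054 and 9.92 ± 0.26 log2 in WT lungs. The PND 0 arrays lay above the PND 3 arrays in each genotype, and those of PND 42 above those of PND 10. In Scnn1b-Tg the PND 42 arrays lay below those of PND 0, a change of -0.32 log2 that did not pass (adjusted p = 0.0575). The same change in WT was -0.11 log2 (adjusted p = 0.52). Cav1 fell from PND 0 to PND 3 by 0.63 log2 in Scnn1b-Tg (SE 0.14, adjusted p = 0.00076) and by 0.65 log2 in WT (SE 0.14, adjusted p = 0.000582). It rose from PND 10 to PND 42 by 0.55 log2 in Scnn1b-Tg (SE 0.14, adjusted p = 0.00376) and by 0.60 log2 in WT (SE 0.14, adjusted p = 0.00211). Of 10 other genes of caveolae, none rose and 6 fell from PND 0 to PND 3 in Scnn1b-Tg, and none rose and 4 fell in WT. Ehd2, an ATPase at the neck of the pit, fell by 0.96 log2 in Scnn1b-Tg and 0.94 log2 in WT. Later, from PND 10 to PND 42, 5 rose and 3 fell in Scnn1b-Tg and 4 rose and 1 fell in WT. Cavin2, a coat component, rose by 0.58 log2 in Scnn1b-Tg and 0.45 log2 in WT. The endothelial markers moved with the first of these changes. Of 12, 1 rose and 9 fell from PND 0 to PND 3 in Scnn1b-Tg and none rose and 9 fell in WT, with Cdh5, the cadherin of endothelial junctions, falling by 1.23 log2 in Scnn1b-Tg and 1.48 log2 in WT. The mean level of the 12 lay between 8.23 and 8.46 in Scnn1b-Tg arrays at PND 3 and between 8.73 and 9.06 at PND 0, and between 8.31 and 8.45 in WT arrays at PND 3 and between 8.97 and 9.27 at PND 0. At PND 10 that mean was higher than at PND 3, between 8.51 and 8.77 in Scnn1b-Tg arrays and between 8.9 and 8.99 in WT arrays. Cav1 did not go up in that step, with changes of -0.24 log2 in Scnn1b-Tg and -0.051 log2 in WT that did not pass. In the interval from PND 10 to PND 42, 3 of the 12 rose and 2 fell in Scnn1b-Tg, and none rose and 3 fell in WT. Of all probe sets, 24.8% rose and 24.6% fell from PND 0 to PND 3 in Scnn1b-Tg, and 21.7% rose and 24.9% fell in WT. From PND 10 to PND 42 these shares were 10.4% and 19.4% in Scnn1b-Tg, and 9.74% and 20.7% in WT. The part of endothelium in the change of Cav1 or Emp2 was not tested.

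Ager encodes RAGE, a pattern recognition receptor held at a high basal level in type I cells. It averaged 10.96 ± 0.20, 11.05 ± 0.13, 10.60 ± 0.17 and 11.25 ± 0.14 log2 in Scnn1b-Tg lungs, in order of age, and 11.16 ± 0.21, 10.92 ± 0.22, 10.73 ± 0.14 and 11.14 ± 0.15 log2 in WT lungs (SD, n = 3). In each genotype the mean was lowest at PND 10, and among successive ages only the step from PND 10 to PND 42 passed the test. It was 0.65 log2 in Scnn1b-Tg (SE 0.14, adjusted p = 0.00111) and 0.41 log2 in WT (SE 0.14, adjusted p = 0.0297). The WT call was lost without replicate 1 or 2 at PND 10 (adjusted p = 0.0535 and 0.132) or replicate 1 or 3 at PND 42 (adjusted p = 0.111 and 0.0784). The ligands and partners of RAGE were mixed. Of 8, 6 rose and 2 fell from PND 0 to PND 3 in Scnn1b-Tg and 5 rose and 2 fell in WT, with S100a1, a calcium-binding ligand, up by 1.41 log2 in Scnn1b-Tg and 1.26 log2 in WT. Between PND 10 and PND 42, 2 rose and 3 fell in Scnn1b-Tg and 2 rose and 4 fell in WT, with S100b down by 0.72 log2 in Scnn1b-Tg and 0.60 log2 in WT. Diaph1, the formin that binds the tail of RAGE, rose by 0.94 log2 in Scnn1b-Tg and 0.61 log2 in WT. Of all probe sets, 24.8% rose and 24.6% fell from PND 0 to PND 3 in Scnn1b-Tg, and 21.7% rose and 24.9% fell in WT. From PND 10 to PND 42 these shares were 10.4% and 19.4% in Scnn1b-Tg, and 9.74% and 20.7% in WT.

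Pdpn encodes podoplanin, a mucin-type glycoprotein of the apical membrane that binds ERM proteins inside the cell and the platelet receptor CLEC-2 outside it. It was lowest at birth in each genotype, where most of the 8 were lowest at PND 10. In Scnn1b-Tg lungs it read 8.19, 8.38 and 8.24 at PND 0, 9.03, 8.69 and 9.02 at PND 3, 8.88, 8.83 and 8.64 at PND 10, and 9.0, 9.54 and 9.60 at PND 42. In WT lungs it read 7.98, 8.57 and 8.58 at PND 0, 8.95, 8.97 and 8.76 at PND 3, 8.76, 8.62 and 8.81 at PND 10, and 9.25, 9.01 and 9.41 at PND 42. PND 0 was the lowest age in each genotype, below all later arrays of that genotype, and the PND 3 and PND 10 arrays overlapped. Pdpn rose between PND 0 and PND 3 by 0.64 log2 in Scnn1b-Tg (SE 0.16, adjusted p = 0.00259) and by 0.52 log2 in WT (SE 0.16, adjusted p = 0.0127). The WT call was lost without WT replicate 1 at PND 0 (0.32 log2, adjusted p = 0.109). The rise from PND 10 to PND 42 was 0.59 log2 in Scnn1b-Tg (adjusted p = 0.00772) and 0.49 log2 in WT (adjusted p = 0.0248). The WT call was lost without replicate 2 at PND 10 (adjusted p = 0.0921) or replicate 1 or 3 at PND 42 (adjusted p = 0.0633 and 0.105). PND 42 was above PND 0 by 1.11 log2 in Scnn1b-Tg (SE 0.16, adjusted p = 8.83e-06), which is 2.16-fold, and by 0.85 log2 in WT (SE 0.16, adjusted p = 0.000187), or 0.65 log2 (adjusted p = 0.00208) without WT replicate 1 at PND 0. Without Scnn1b-Tg replicate 3 at PND 42 the Scnn1b-Tg difference was 0.998 log2 and no longer 2-fold. The ERM gene Msn rose from PND 10 to PND 42 by 1.22 log2 in Scnn1b-Tg and 0.94 log2 in WT, and Ezr by 0.48 log2 in Scnn1b-Tg and 0.98 log2 in WT. These were the only 2 of the 6 measured partners of podoplanin that rose in that interval in either genotype, and none fell. Of the 6, none rose and 3 fell from PND 0 to PND 3 in each genotype. The shares of all probe sets that rose and fell were 24.8% and 24.6% in Scnn1b-Tg in that early interval, and 21.7% and 24.9% in WT. From PND 10 to PND 42 they were 10.4% and 19.4% in Scnn1b-Tg, and 9.74% and 20.7% in WT.

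Markers of the other cells that hold podoplanin moved as follows. Of 6 mesothelial markers, 3 rose from PND 10 to PND 42 in Scnn1b-Tg and 6 rose in WT, with Upk3b up by 1.08 log2 in Scnn1b-Tg and 2.45 log2 in WT and Lrrn4 up by 2.12 log2 in Scnn1b-Tg and 2.77 log2 in WT. The mean level of the 6 was 8.05 to 8.45 in Scnn1b-Tg arrays at PND 42 and 7.39 to 7.49 at PND 10, and 8.19 to 8.76 in WT arrays at PND 42 and 6.71 to 7.05 at PND 10. From PND 0 to PND 3, 2 of the 6 rose and none fell in Scnn1b-Tg, and 1 rose and 2 fell in WT. Of 5 measured lymphatic markers, none rose and 4 fell from PND 0 to PND 3 in each genotype, the interval in which Pdpn rose, and 1 rose and none fell in Scnn1b-Tg and none changed in WT from PND 10 to PND 42. Among all probe sets 24.8% rose and 24.6% fell from PND 0 to PND 3 in Scnn1b-Tg, and 21.7% rose and 24.9% fell in WT. From PND 10 to PND 42 these shares were 10.4% and 19.4% in Scnn1b-Tg, and 9.74% and 20.7% in WT. The part of mesothelium in the late rise of Pdpn was not tested.

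Hopx encodes a small homeodomain protein that does not bind DNA and acts as a cofactor of transcription. In Scnn1b-Tg lungs it read 8.53, 8.46 and 8.42 at PND 0, 8.93, 8.87 and 8.75 at PND 3, 8.31, 8.35 and 8.23 at PND 10, and 8.74, 8.88 and 9.11 at PND 42. In WT lungs it read 8.05, 8.51 and 8.54 at PND 0, 8.55, 8.64 and 8.37 at PND 3, 8.46, 8.30 and 8.38 at PND 10, and 8.78, 8.76 and 9.28 at PND 42. The PND 42 arrays were above those of PND 0 and PND 10 in each genotype, and in Scnn1b-Tg those of PND 3 stood above PND 0 and PND 10 as well. Hopx rose between PND 10 and PND 42 by 0.61 log2 in Scnn1b-Tg (SE 0.14, adjusted p = 0.00169) and by 0.57 log2 in WT (SE 0.14, adjusted p = 0.00337). PND 42 was above PND 0 by 0.44 log2 in Scnn1b-Tg (adjusted p = 0.0114, and 0.0695 without Scnn1b-Tg replicate 3 at PND 42) and by 0.58 log2 in WT (adjusted p = 0.00144, and 0.42 log2 with an adjusted p of 0.0155 without WT replicate 1 at PND 0). In Scnn1b-Tg Hopx also rose from PND 0 to PND 3 by 0.38 log2 (adjusted p = 0.0283) and fell from PND 3 to PND 10 by 0.55 log2 (adjusted p = 0.0279). The first of these calls was lost without replicate 2 or 3 at PND 0 or replicate 1 or 2 at PND 3 (adjusted p = 0.0657, 0.0773, 0.0853 and 0.0637). The second was lost without replicate 1 or 2 at PND 3 (adjusted p = 0.125 and 0.0843) or any 1 array at PND 10 (adjusted p = 0.0611, 0.0664 and 0.114).

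Aqp5 encodes the water channel of the apical membrane of type I cells, which glands of the airway express too. It had the narrowest range of group means of the 8 genes, 0.42 log2. In Scnn1b-Tg lungs it read 9.04, 9.04 and 8.91 at PND 0, 9.31, 9.38 and 9.51 at PND 3, 9.28, 9.20 and 9.09 at PND 10, and 8.99, 9.26 and 9.32 at PND 42. In WT lungs it read 9.30, 9.13 and 9.16 at PND 0, 9.17, 9.44 and 9.03 at PND 3, 9.05, 8.90 and 9.01 at PND 10, and 9.43, 8.82 and 9.26 at PND 42. The arrays of all ages overlapped in WT except those of PND 0, which were above those of PND 10. Its change from PND 10 to PND 42 was 0.0030 log2 in Scnn1b-Tg (95% interval -0.27 to 0.28) and 0.18 log2 in WT (95% interval -0.094 to 0.46), and the WT value passed only without WT replicate 2 at PND 42 (0.36 log2, adjusted p = 0.041). From PND 0 to PND 3 it rose by 0.40 log2 in Scnn1b-Tg (SE 0.13, adjusted p = 0.0154), a call that was lost without replicate 3 at PND 0 or replicate 3 at PND 3 (adjusted p = 0.0575 and 0.0666). Of 7 other aquaporin genes, 3 rose and none fell from PND 0 to PND 3 in Scnn1b-Tg, and 2 rose and 1 fell in WT. Aqp4, the basolateral water channel of airway epithelium, rose by 0.64 log2 in Scnn1b-Tg in that interval (adjusted p = 0.000261). Of the same 7, 1 rose and none fell from PND 10 to PND 42 in Scnn1b-Tg, and 2 rose and none fell in WT. Of all probe sets, 24.8% rose and 24.6% fell from PND 0 to PND 3 in Scnn1b-Tg, and 21.7% rose and 24.9% fell in WT. From PND 10 to PND 42 these shares were 10.4% and 19.4% in Scnn1b-Tg, and 9.74% and 20.7% in WT. With 7 genes, the aquaporin counts are not far from those shares.

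**Figure D2:**
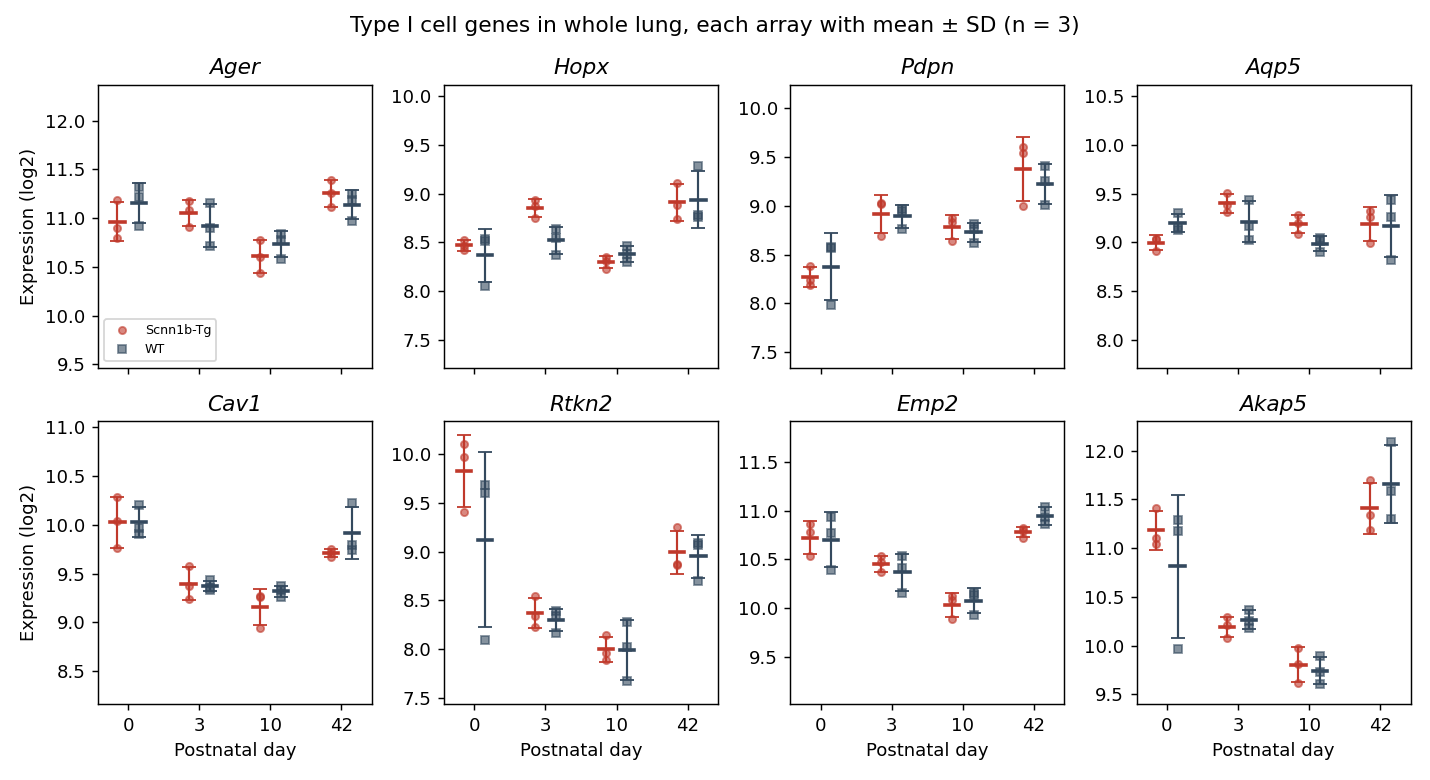
Log2 expression (y axis; all panels span an equal range) of each type I cell gene by postnatal day (x axis), 1 point per array, Scnn1b-Tg (circles) left of WT (squares), with mean and SD (n = 3). Akap5, Emp2, Rtkn2 and Cav1 are lowest at PND 10 and higher again at PND 42. In Scnn1b-Tg the PND 42 arrays of Rtkn2 and Cav1 lie below those of PND 0. Pdpn starts low, Aqp5 is nearly flat, and WT replicate 1 at PND 0 stands low for Rtkn2 (8.09) and Akap5 (9.97).

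Counted over the 8 genes, the first days were mixed. From PND 0 to PND 3, 3 genes rose (Hopx, Pdpn and Aqp5) and 3 fell (Cav1, Rtkn2 and Akap5) in Scnn1b-Tg, where 24.8% of all probe sets rose and 24.6% fell. In WT, 1 rose (Pdpn) and 3 fell (Cav1, Rtkn2 and Emp2), where 21.7% rose and 24.9% fell. Without WT replicate 1 at PND 0, none rose and Akap5 joined the 3 that fell in WT. With 8 genes, these counts are not far from the shares over the array. Only Rtkn2 in Scnn1b-Tg fell by 2-fold or more, as did 8% of probe sets. From PND 3 to PND 10, 1 of 8 fell in Scnn1b-Tg, where 1.18% of probe sets fell, and 0 of 8 passed in WT, where 5.03% passed in either direction by limma. All 8 estimates of that interval were below 0 in each genotype, with medians of -0.38 in Scnn1b-Tg and -0.21 log2 in WT, and 3 genes in Scnn1b-Tg and 2 in WT had an unadjusted p under 0.05. Without WT replicate 1 at PND 0, which enters that comparison only through the shared estimate of spread, 2 of 8 passed in Scnn1b-Tg. Across the whole span, PND 42 exceeded PND 0 for 2 genes and fell short for 1 in Scnn1b-Tg. Of all probe sets in Scnn1b-Tg, 22.6% were higher and 31.1% lower. In WT, PND 42 exceeded PND 0 for 3 genes and fell short for none (2 genes and 1 gene, Rtkn2, without WT replicate 1 at PND 0). Of all probe sets in WT, 23% were higher, and 12269 of 21789 passed in either direction. Pdpn in Scnn1b-Tg was the only one of these past 2-fold, as were 2.48% of probe sets.

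**Figure D3:**
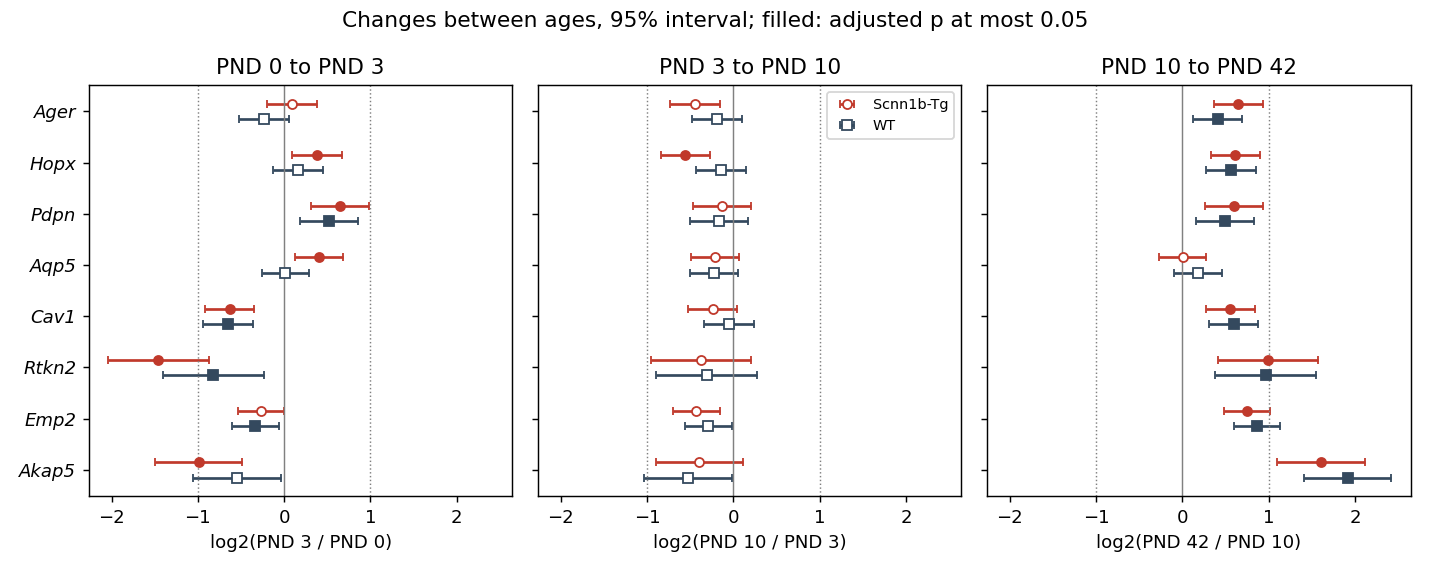
Log2 change of each type I cell gene between successive ages (x axis), with 95% intervals, Scnn1b-Tg (circles) above WT (squares); filled symbols have an adjusted p of 0.05 or less and dotted lines mark 2-fold. The changes split by sign from PND 0 to PND 3, all lie below 0 from PND 3 to PND 10, and all but Aqp5 are filled and positive from PND 10 to PND 42.

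The 8 genes fell into unequal company over the 8 group means, which come from 1 set of 24 arrays and are too few for more than a description. Emp2 and Akap5 followed each other most closely (Pearson r = 0.965), followed by Cav1 and Rtkn2 (r = 0.93) and Ager and Emp2 (r = 0.896). Pdpn ran against Rtkn2 (r = -0.304) and Cav1 (r = -0.25), and Aqp5 against them too (r = -0.263 and -0.234). For 7 of the 8 genes, the 250 bases upstream of a RefSeq start site could be read. The set of start sites used here held no entry for Rtkn2. In these windows the GC box, GGGCGG on either strand, was counted 3 times for Akap5, 2 times for Emp2, 2 times for Aqp5 and 1 time for the upstream start of Cav1, and was not found for Ager, Hopx, Pdpn or the second start of Cav1. It is present in 32.7% of 32841 such mouse windows. The letters GGAATG, which TEAD factors bind, occurred in no window of the 7 genes on either strand and in 12.6% of all windows, and CTCAAG, bound by NKX2-1, occurred 1 time for Hopx and in 13.3% of all windows. Base composition differed widely among them. Aqp5, the gene with the narrowest range, has the window richest in G and C of the 7 genes at 78.4% with 38 CpG dinucleotides, and Akap5, the gene with the widest range, the next richest at 70% with 20 CpG. Pdpn has the poorest at 43.2% with 2 CpG, against a median of 52.4% over all windows. The windows of Emp2, Cav1, Aqp5 and Pdpn are shown 5′ to 3′ on the gene's strand (RefSeq, GRCm38.p6), with GC boxes in capitals. Emp2 and Cav1 moved together (r = 0.883). Aqp5 and Pdpn followed neither closely, with r of 0.0818 and 0.184 to Emp2 and of -0.234 and -0.25 to Cav1. The windows lie at chr16:10313969-10314218 (minus strand) for Emp2, chr6:17306085-17306334 (plus strand) for Cav1, chr15:99590778-99591027 (plus strand) for Aqp5 and chr4:143299565-143299814 (minus strand) for Pdpn.
Emp2: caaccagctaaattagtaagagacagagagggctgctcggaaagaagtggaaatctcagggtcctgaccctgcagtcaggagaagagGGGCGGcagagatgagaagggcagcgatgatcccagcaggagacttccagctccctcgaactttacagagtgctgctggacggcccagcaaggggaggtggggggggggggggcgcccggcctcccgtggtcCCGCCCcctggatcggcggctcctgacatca
Cav1: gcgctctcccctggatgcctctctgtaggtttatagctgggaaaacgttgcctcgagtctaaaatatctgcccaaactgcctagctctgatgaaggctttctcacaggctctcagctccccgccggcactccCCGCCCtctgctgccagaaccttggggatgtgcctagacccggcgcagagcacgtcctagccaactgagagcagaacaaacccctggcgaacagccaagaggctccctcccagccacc
Aqp5: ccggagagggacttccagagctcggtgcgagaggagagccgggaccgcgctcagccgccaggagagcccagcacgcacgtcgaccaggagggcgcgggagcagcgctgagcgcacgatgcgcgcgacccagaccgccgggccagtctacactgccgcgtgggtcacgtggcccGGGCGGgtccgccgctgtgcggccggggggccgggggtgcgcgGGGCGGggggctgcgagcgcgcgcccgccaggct
Pdpn: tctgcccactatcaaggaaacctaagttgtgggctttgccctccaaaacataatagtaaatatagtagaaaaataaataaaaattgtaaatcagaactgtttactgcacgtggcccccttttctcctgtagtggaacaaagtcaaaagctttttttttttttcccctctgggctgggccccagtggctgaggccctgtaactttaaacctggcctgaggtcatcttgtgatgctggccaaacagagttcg

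Between genotypes, 0 of the 8 genes passed at PND 0, PND 3, PND 10 or PND 42 by limma, where 0.0229%, 0.0459%, 0.427% and 0.909% of all probe sets passed in either direction. In the mean of the 4 ages 0 of 8 passed, beside 0.459% of probe sets. At an unadjusted p under 0.05 the counts were 1 gene at PND 0, 1 at PND 3 and 0 at PND 10, PND 42 and in the mean. The 95% intervals of the differences between Scnn1b-Tg and WT ran from -0.48 to 1.29 log2 at PND 0, from -0.58 to 0.65 at PND 3, from -0.58 to 0.59 at PND 10 and from -0.75 to 0.62 at PND 42, over the 8 genes. No interval other than that of Rtkn2 at PND 0 reached a 2-fold difference in either direction. The largest estimate was that of Rtkn2 at PND 0, 0.70 log2 (95% interval 0.12 to 1.29, unadjusted p = 0.0202, adjusted p = 1), and it was 0.19 log2 without WT replicate 1 at PND 0. Hopx at PND 3 was 0.33 log2 higher in Scnn1b-Tg (95% interval 0.040 to 0.61, unadjusted p = 0.0275, adjusted p = 0.619), with its 3 arrays at 8.75 to 8.93 in Scnn1b-Tg and at 8.37 to 8.64 in WT. Groups were also apart without passing the test for Aqp5, lower in Scnn1b-Tg at PND 0 and higher at PND 10, and for Emp2, lower in Scnn1b-Tg at PND 42 by a log2 difference of -0.16 (adjusted p = 0.75), with arrays at 10.72 to 10.82 in Scnn1b-Tg and at 10.86 to 11.04 in WT. All other pairs of groups overlapped. Thus 1 of the 8 genes separated the genotypes at each age, and over all probe sets 12.5% did so at PND 0, 11.3% at PND 3, 17.3% at PND 10 and 10.7% in the oldest mice, shares close to those of the 8 genes. At the same age 3 of 7 macrophage markers were higher in Scnn1b-Tg, among them Cd68 by 1.69 log2 and Itgax by 1.96 log2.

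**Figure D4:**
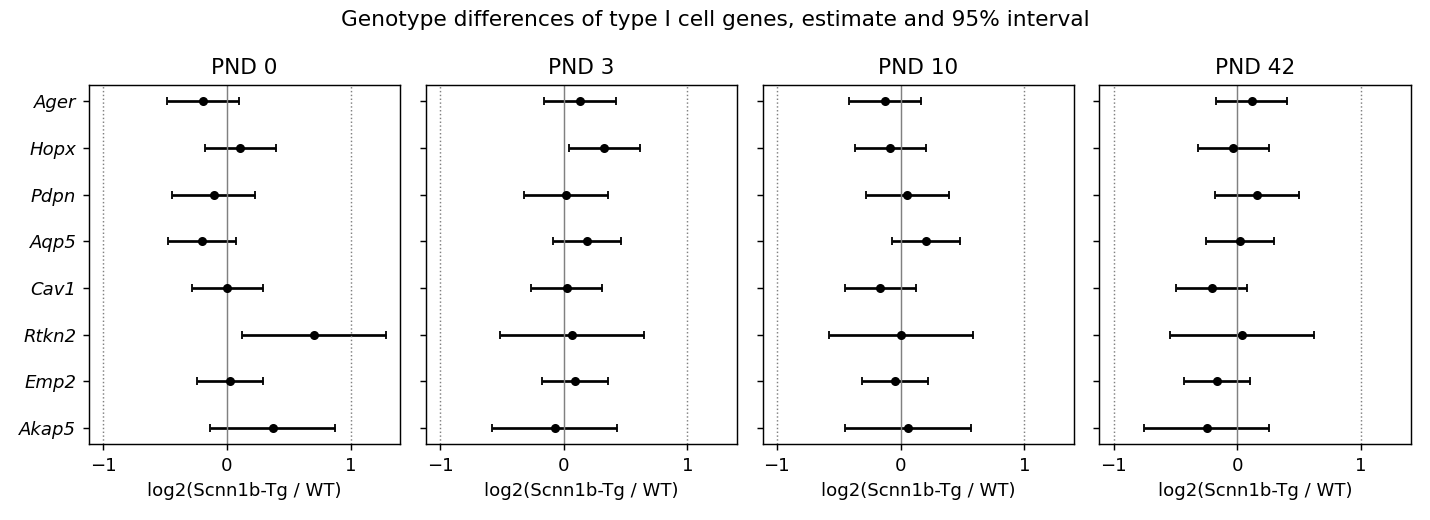
Log2 difference between Scnn1b-Tg and WT (x axis) of each type I cell gene at the 4 ages, with 95% intervals; dotted lines mark 2-fold in either direction. All intervals but those of Rtkn2 at PND 0 and Hopx at PND 3 include 0, and that of Rtkn2 at PND 0 alone reaches past 2-fold.

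The change over an interval was also compared between genotypes. For the interval from PND 0 to PND 3, 0 of 8 genes and 0% of probe sets differed. For PND 3 to PND 10, 0 of 8 genes and 0.00918% of probe sets differed, and for PND 10 to PND 42, 0 of 8 genes and 0.321%. At an unadjusted p under 0.05 there was 1 gene in the first interval, 1 in the second and 0 for PND 10 to PND 42. They were Aqp5 from PND 0 to PND 3 (a difference of 0.39 log2, adjusted p = 0.998) and Hopx from PND 3 to PND 10 (-0.41 log2, adjusted p = 0.748). Calls that one genotype passed and the other did not, such as those of Hopx and Aqp5 in Scnn1b-Tg alone, are therefore not shown to differ between the genotypes.

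Of 30 further genes of type I cells, 28 were measured. From PND 10 to PND 42, 14 rose and 2 fell in Scnn1b-Tg (median 0.40 log2), where 10.4% of all probe sets rose and 19.4% fell, and 12 rose and 3 fell in WT (median 0.33 log2), where 9.74% rose and 20.7% fell. Cyp2b10, a cytochrome P450 of lung epithelium, moved most, by 3.02 log2 in Scnn1b-Tg (SE 0.27, adjusted p = 6.63e-08) and by 3.79 log2 in WT (SE 0.27, adjusted p = 1.39e-09). Clic5, a chloride channel family protein that ties membrane to actin, rose by 1.19 log2 in Scnn1b-Tg and 1.03 log2 in WT, and Myrf, a membrane-bound transcription factor, by 0.98 log2 in Scnn1b-Tg and 1.29 log2 in WT. Limch1, an actomyosin regulator, rose by 0.73 log2 in Scnn1b-Tg and 0.56 log2 in WT, and Sec14l3, a lipid transfer protein, by 1.24 log2 in Scnn1b-Tg and 1.37 log2 in WT. Igfbp2 and Cdkn2b, the genes of an IGF-binding protein and a cyclin-dependent kinase inhibitor, fell in Scnn1b-Tg by 1.12 log2 for Igfbp2 and by 0.60 log2 for Cdkn2b. In WT, Cdkn2b fell by 0.75, Col4a4 by 0.52 and Egfl6 by 0.50 log2, whereas the change of Igfbp2 was -0.58 log2 (adjusted p = 0.0794). In the first interval, PND 0 to PND 3, 4 of the 28 rose and 16 fell in Scnn1b-Tg (median -0.50 log2), and 2 rose and 17 fell in WT (median -0.53 log2). Of all probe sets, 24.8% rose and 24.6% fell in Scnn1b-Tg (median 0.066 log2), and 21.7% rose and 24.9% fell in WT (median 0.064 log2). Limch1 fell by 1.52 log2 in Scnn1b-Tg and 1.38 log2 in WT, and Col4a3, a chain of the alveolar basement membrane, by 1.61 log2 in Scnn1b-Tg and 1.65 log2 in WT. Vegfa, the endothelial growth factor, fell by 1.47 log2 in Scnn1b-Tg and 1.23 log2 in WT, and Timp3, a protease inhibitor, by 1.23 log2 in Scnn1b-Tg and 2.09 log2 in WT. None of the 28 passed the test between the genotypes at any of the 4 ages. At PND 0, 3, 10 and 42, only 0.0229%, 0.0459%, 0.427% and 0.909% of all probe sets passed in either direction.

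**Figure D5:**
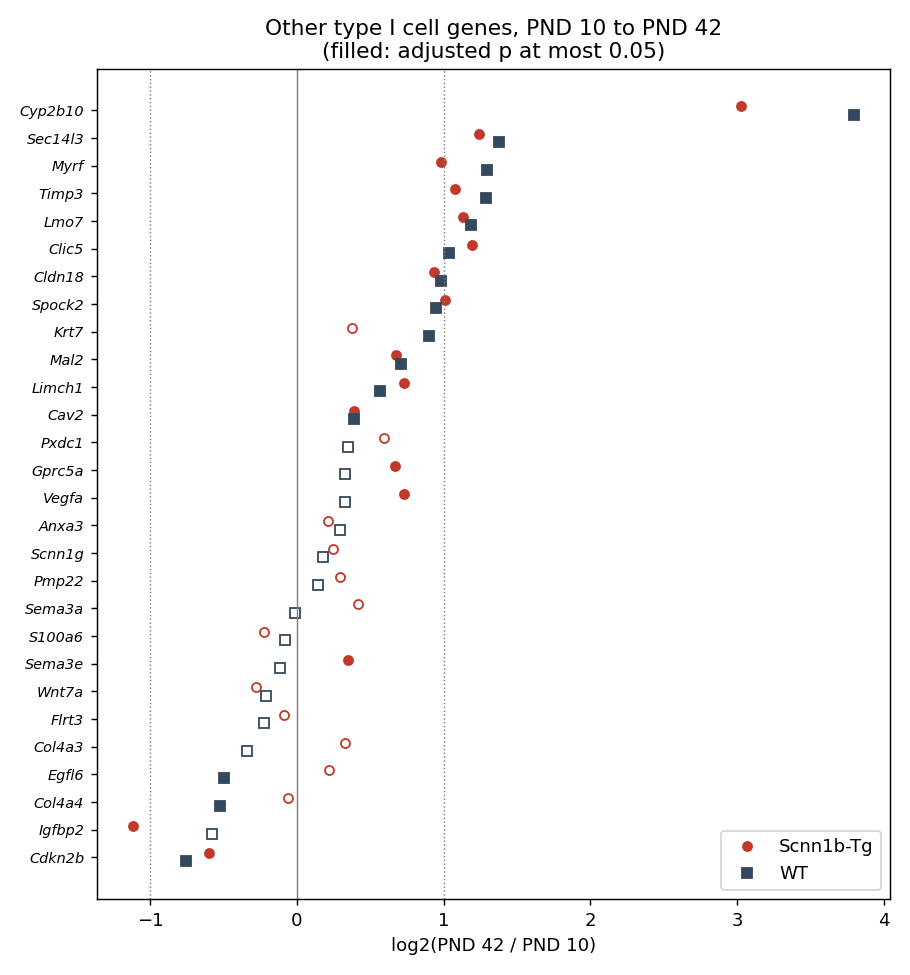
Log2 change from PND 10 to PND 42 (x axis) of 28 further type I cell genes, Scnn1b-Tg (circles) above WT (squares), sorted by the WT value; filled symbols have an adjusted p of 0.05 or less and dotted lines mark 2-fold. Cyp2b10 stands far to the right at 3.02 and 3.79 log2, and Cdkn2b is filled below 0 in each genotype.

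The regulators of type I cell identity, NKX2-1, YAP1, TAZ, the TEAD factors, GATA6, KLF5 and others, mostly fell in the first days. Of 14, none rose and 12 fell from PND 0 to PND 3 in Scnn1b-Tg, and none rose and 13 fell in WT. Among all probe sets 24.8% rose and 24.6% fell in that interval in Scnn1b-Tg, and 21.7% rose and 24.9% fell in WT. Tead1, a DNA-binding partner of YAP1, changed by -2.80 log2 in Scnn1b-Tg and -3.07 log2 in WT, and rose again from PND 10 to PND 42 by 2.01 log2 in Scnn1b-Tg and 1.90 log2 in WT. Tead2, a relative prominent in embryos, changed in that late interval by -1.74 log2 in Scnn1b-Tg and -1.65 log2 in WT. In all, 3 of the 14 rose and 1 fell in Scnn1b-Tg, and 5 rose and 1 fell in WT. Among all probe sets 10.4% rose and 19.4% fell in the late interval in Scnn1b-Tg, and 9.74% rose and 20.7% fell in WT. Of 8 target genes of YAP1 and TAZ, none rose and 6 fell from PND 0 to PND 3 in Scnn1b-Tg and none rose and 7 fell in WT, with Amotl2, an angiomotin, down by 1.07 log2 in Scnn1b-Tg and 1.52 log2 in WT. In the late interval 1 of the 8 rose and 1 fell in Scnn1b-Tg, and 2 rose and 1 fell in WT. Of the 8 measured enzymes and subunits that AKAP5 anchors, none rose and 1 fell from PND 10 to PND 42 in Scnn1b-Tg. In WT none rose and 2 fell, and with 8 genes these counts are not far from the shares over the array. Ppp3cb, a catalytic subunit of calcineurin, fell by 0.71 log2 in Scnn1b-Tg and 0.74 log2 in WT. From PND 0 to PND 3, none of these rose and 7 fell in Scnn1b-Tg, and none rose and 6 fell in WT.

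Markers shared by all lung epithelium and those of type II cells, the other alveolar epithelial cell, were counted in the same interval. From PND 10 to PND 42, 1 of 8 pan-epithelial markers rose and none fell in Scnn1b-Tg, and 2 rose and none fell in WT, and Cdh1, epithelial cadherin, rose in each, by 1.02 log2 in Scnn1b-Tg and 0.67 log2 in WT. Of 10 type II cell markers, 6 rose and none fell in Scnn1b-Tg and 2 rose and none fell in WT. Among all probe sets 10.4% rose and 19.4% fell in that interval in Scnn1b-Tg, and 9.74% rose and 20.7% fell in WT. Sftpa1, a surfactant protein gene, rose by 0.94 log2 in Scnn1b-Tg and 0.80 log2 in WT. The mean level of the 10 was 10.44 to 10.71 in Scnn1b-Tg arrays at PND 42 and 9.81 to 10.11 at PND 10, and 10.05 to 10.48 in WT arrays at PND 42 and 10.02 to 10.06 at PND 10.

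The genes of the array whose group means ran most like the 8 were sought among 5945 genes with a group mean above 6 and an SD over group means of at least 0.3. Closest to the mean of the 8 was Epb41l5 (r = 0.992 over 8 group means), which encodes a FERM-domain protein of epithelial junctions. Next came Slc39a8 (r = 0.974), a zinc importer, Tmod1 (r = 0.967), which caps actin filaments, and Myrf (r = 0.963). Cgnl1, Samd4, Clic5, Shtn1, Fmo2 and Deptor followed at r = 0.95 to 0.958. Akap5 was followed most closely by Myrf (r = 0.982), Tmod1 and Epb41l5 (r = 0.978 each), and Emp2 by Samd4 (r = 0.973), Epb41l5 (r = 0.972) and Deptor (r = 0.969). For Cav1 the closest were Elk4 (r = 0.987), Tacc2 (r = 0.985) and Sec14l4 (r = 0.982), and for Rtkn2 they were Patj, Unc13b and Crlf3 (r = 0.973 to 0.979). Pdpn kept other company, with Cytl1 (r = 0.98), Ms4a6b (r = 0.979) and Gzma (r = 0.974), the last a granzyme of cytotoxic lymphocytes. The genes most like Aqp5 were Ak8 (r = 0.939), Ppil6 (r = 0.932) and Cfap52 (r = 0.915), the last a protein of ciliary axonemes. For Hopx they were Vamp8 (r = 0.933), Stk26 (r = 0.918) and Plekhb1 (r = 0.913), and for Ager, Hsd17b11 (r = 0.896), Sqstm1 (r = 0.893) and Herpud1 (r = 0.89).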

How the data were processed

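Pooled RNA of left lung lobes was hybridised to 24 Affymetrix Mouse Gene 1.0 ST arrays, 3 per genotype and age. The authors summarised probe sets by RMA with quantile normalization in Partek (version 6.5 per the labels, whereas the methods name a later release) and deposited log2 values. No counts or depth exist for arrays, so the number of arrays limits the precision. Of 35556 deposited rows, the 21789 that name 1 gene were tested (1621 name several and 12146 none). Differences were estimated with limma 3.58.1 in R 4.3.3 (8 group means, 16 residual degrees of freedom, Benjamini-Hochberg adjustment within each comparison), after the script was tested on simulated data. A gene is said to rise or fall at an adjusted p of 0.05 or less, and the 2-fold condition of the methods was applied in addition. Intervals cover 95%. The 8 genes, the gene lists, drawn from general knowledge, and the markers were chosen with earlier results of these data known. All 8 genes are described. Genes of a list are mainly those with the lowest p, and genes most like a member those with the highest r, while others were chosen after their values were seen. Replicate numbers did not pair the arrays: same-numbered arrays of the groups compared deviated from their group means with correlations of -0.26 to 0.3, over 0.1 in 5 of 12 pairs. Alternatives covered moderation, the arrays and rows fitted, priors, array weights, normalization, thresholds, a replicate block and each array left out. Promoter windows came from RefSeq (GRCm38.p6), whereas the array coordinates of the files follow another build and were not used here.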

Additional observations from a re-analysis of the deposited data

How the results depend on the processing

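None of the 34 changes of single genes that passed or were named turned round under any setting run, and the counts between genotypes stayed at 0. Medians close to 0 did change sign, such as that between Scnn1b-Tg and WT at PND 0, which was 0.0144 log2 and -0.092 log2 without WT replicate 1 at PND 0. Of 509 counts and medians under the other settings, 25 moved, and of 340 values of single genes, 7 lost the threshold. The number of the 8 genes at 2-fold or more was 1 for PND 0 to PND 3 in Scnn1b-Tg (2 with array weights or with quantile normalization repeated, 4 at 1.5-fold, 6 with no fold condition) and 0 in WT (1 with array weights, 2 at 1.5-fold, 4 with no fold condition). For PND 3 to PND 10 in Scnn1b-Tg it was 0, and 1 with no fold condition. For PND 10 to PND 42 it was 1 in Scnn1b-Tg (2 with quantile normalization repeated, 6 at 1.5-fold, 7 with no fold condition) and 1 in WT (2, 4 and 7 under the same settings). For PND 0 to PND 42 it was 1 in Scnn1b-Tg (2 with array weights or at 1.5-fold, 3 with no fold condition) and 0 in WT (1 with quantile normalization repeated, 2 at 1.5-fold, 3 with no fold condition). The number passing the adjusted p alone was 4 for PND 0 to PND 3 in WT and 2 with the compared arrays fitted alone, which leaves fewer degrees of freedom. For PND 3 to PND 10 it was 1 in Scnn1b-Tg (0 without moderation or with all rows tested), and 0 in WT (1 with the compared arrays fitted alone or with array weights). The cause was not tested for the other changes. The genes that lost a call were Rtkn2 in WT between PND 0 and PND 3 (adjusted p = 0.122 with the compared arrays alone, 0.0658 with quantile normalization repeated), Emp2 in the same comparison (0.132 with the compared arrays alone, 0.123 with array medians subtracted), Hopx from PND 3 to PND 10 in Scnn1b-Tg (0.0562 without moderation, 0.0543 with all rows tested) and Akap5 from PND 0 to PND 42 in WT (0.0676 with the compared arrays alone).

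With each array left out in turn, the number of the 8 genes at 2-fold ranged from 1 to 2 for PND 0 to PND 3 in Scnn1b-Tg and 0 to 1 in WT, 1 to 2 for PND 10 to PND 42 in Scnn1b-Tg and 1 to 2 in WT, and 0 to 2 for PND 0 to PND 42 in Scnn1b-Tg and 0 to 1 in WT. The number passing the adjusted p alone ranged from 5 to 6 for PND 0 to PND 3 in Scnn1b-Tg and 2 to 4 in WT, 0 to 2 for PND 3 to PND 10 in Scnn1b-Tg, 5 to 8 for PND 10 to PND 42 in WT, and, for PND 0 to PND 42, 2 to 4 in Scnn1b-Tg and 3 to 4 in WT. The 2-fold count for PND 0 to PND 3 became 2 in Scnn1b-Tg without replicate 1 or 3 at PND 0 or replicate 3 at PND 3, and 1 in WT without replicate 1 at PND 0. That for PND 10 to PND 42 became 2 in Scnn1b-Tg without replicate 2 at PND 10 or replicate 1 or 2 at PND 42, and in WT without replicate 2 at PND 10 or replicate 1 at PND 42. That for PND 0 to PND 42 became 2 in Scnn1b-Tg without replicate 1 at PND 0, 0 without replicate 3 at PND 42, and 1 in WT without replicate 2 or 3 at PND 0 or replicate 1 at PND 42. With the replicate block, which changed no call of the 8 genes, 7 of 8 still passed from PND 10 to PND 42 in each genotype, and the probe sets that differed between Scnn1b-Tg and WT at PND 3 numbered 5, beside 10 without it. Subtracting array medians moved the median change of all probe sets from PND 0 to PND 3 to 0.209 log2 in Scnn1b-Tg, beside 0.0662 log2 as deposited. The alternative of other probe sets of the same gene could not be run, since each gene has 1. With 3 arrays a group, small differences were not detectable.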
